A study of Bos taurus with 179 samples.

Results

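Transcripts of 2 genes that define the centromere, CENPA and CENPC, were followed through the growth of single bovine oocytes. CENPA (ENSBTAG00000023938) encodes CENP-A, the variant of histone H3 that replaces the canonical histone in centromeric nucleosomes and marks where the kinetochore is built. CENPC (ENSBTAG00000001323) encodes CENP-C, an inner kinetochore protein that binds CENP-A nucleosomes and connects them to the outer kinetochore, which holds the microtubules. In the cell cycle of dividing cells CENP-A is replenished by the chaperone HJURP and the Mis18 complex. A growing oocyte rests in prophase of meiosis I and does not divide, so its centromeres have to be kept through a long arrest before the kinetochores are used in the meiotic divisions. The genes were found by the IDs that the supplementary gene lists of the study pair with the symbols CENPA and CENPC, and these are 2 of 21218 gene IDs in the count table. Each symbol had 1 ID and each ID stood on 1 line. The pairs come from a list of genes that the study considered expressed in every size group, so detection in all groups is partly a property of that list.

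Ovaries of Bos taurus were collected at an abattoir, growing and fully grown oocytes were freed from their follicles and denuded, and each oocyte was measured before its polyadenylated mRNA was amplified and sequenced. Fully grown oocytes were aspirated from surface follicles, and growing ones were freed by slicing the cortex in a medium that held heparin and cilostamide. The route of collection may thus go with size, and the labels do not give it. No treatment was compared, and the labels name neither breed, age nor animal. Oocytes of 1 animal may therefore stand in the same or in different groups. The oocytes that the study analysed, 97 in library replicate 1 and 68 in library replicate 2, were 48 to 135 μm in diameter and fell into 8 groups: <60 μm (n = 21), 60-69 μm (n = 25), 70-79 μm (n = 23), 80-89 μm (n = 24), 90-99 μm (n = 21), 100-109 μm (n = 18), 110-119 μm (n = 19) and >120 μm (n = 14). Libraries of replicate 1 were read at 150 bp and those of replicate 2 at 75 bp, so read length and library batch cannot be told apart. The <60 μm group held 3 oocytes of replicate 1 and 18 of replicate 2, and the other groups held 10 to 17 and 4 to 9. Total counts per oocyte ranged from 277126 to 8038061 with a median of 1763520. Levels are CPM (counts per 1e+06 counts) of the library size scaled by the TMM method, a share of the counted mRNA of an oocyte and not an amount per oocyte, and they are not divided by transcript length, so the 2 genes are not ranked against each other.

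CENPA was a low transcript in oocytes of every size. At least 1 count was found in 94 of 97 oocytes of replicate 1 and in 67 of 68 of replicate 2 (97.6% of all), with a median of 18 counts and a highest value of 215 counts. The level over all oocytes was 11.5 ± 7.31 CPM (mean ± SD over all oocytes), with a median of 10.6 CPM and a highest value of 49.2 CPM. The 4 oocytes at 0 measured between 65.72 and 81.79 μm and were among the shallow libraries, with 294744 to 484296 total counts, for which a count of 0 allows up to 6.19 to 10.2 CPM. At an equal depth of 250000 counts per oocyte, CENPA was found in 87 of 97 and in 61 of 68 oocytes. A missing count in these 4 libraries does not show a missing transcript.

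The group medians of CENPA lay close together. In order of size, the oocytes of the <60 μm group ranged from 1.63 to 23.4 CPM with a median of 7.80 CPM, and those of the 60-69 μm group from 0 to 49.2 CPM with a median of 11.5 CPM. The 70-79 μm oocytes ranged from 0 to 21.6 CPM (median 9.86) and the 80-89 μm oocytes from 0 to 31.8 CPM (median 10.4). The 90-99 μm oocytes ranged from 3.67 to 29.7 CPM (median 11.7) and the 100-109 μm oocytes from 4.52 to 21.2 CPM (median 10.6). All these ranges overlapped, and the range within each group was wider than the distance between any of the medians. The 110-119 μm oocytes ranged from 3.06 to 48.3 CPM with the highest median, 12.2 CPM, and the >120 μm oocytes from 3.18 to 20.1 CPM with a median of 8.19 CPM. With the mean of each replicate removed and levels taken as log2(CPM + 1), the order from high to low was 110-119, 100-109, 90-99, 80-89, 60-69, >120, <60 and 70-79 μm. The largest gap between neighbours in that order was 0.13, and the SD of single oocytes within a group was 0.60 to 1.25, so neighbours lay within the spread of single oocytes, which is no test of their means.

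CENPC was found in all 97 and all 68 oocytes, with a median of 248 counts per oocyte and a range of 5 to 1475 counts, and it was still found in all of them at 250000 counts. Its level over all oocytes was 159 ± 106 CPM (mean ± SD). In replicate 1 it ranged from 9.18 to 223 CPM with a median of 89.4 CPM (n = 97), and in replicate 2 from 109 to 511 CPM with a median of 231 CPM (n = 68). Within 1 replicate the coefficient of variation of CENPC was 41.3% and 40.3% in replicates 1 and 2, beside 61.1% and 66.7% for CENPA with its median of 18 counts. Within a size group and replicate, counting error alone would give CENPA 16.4% to 34.3%, and 30.7% to 96.6% was observed.

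**Figure D1:**
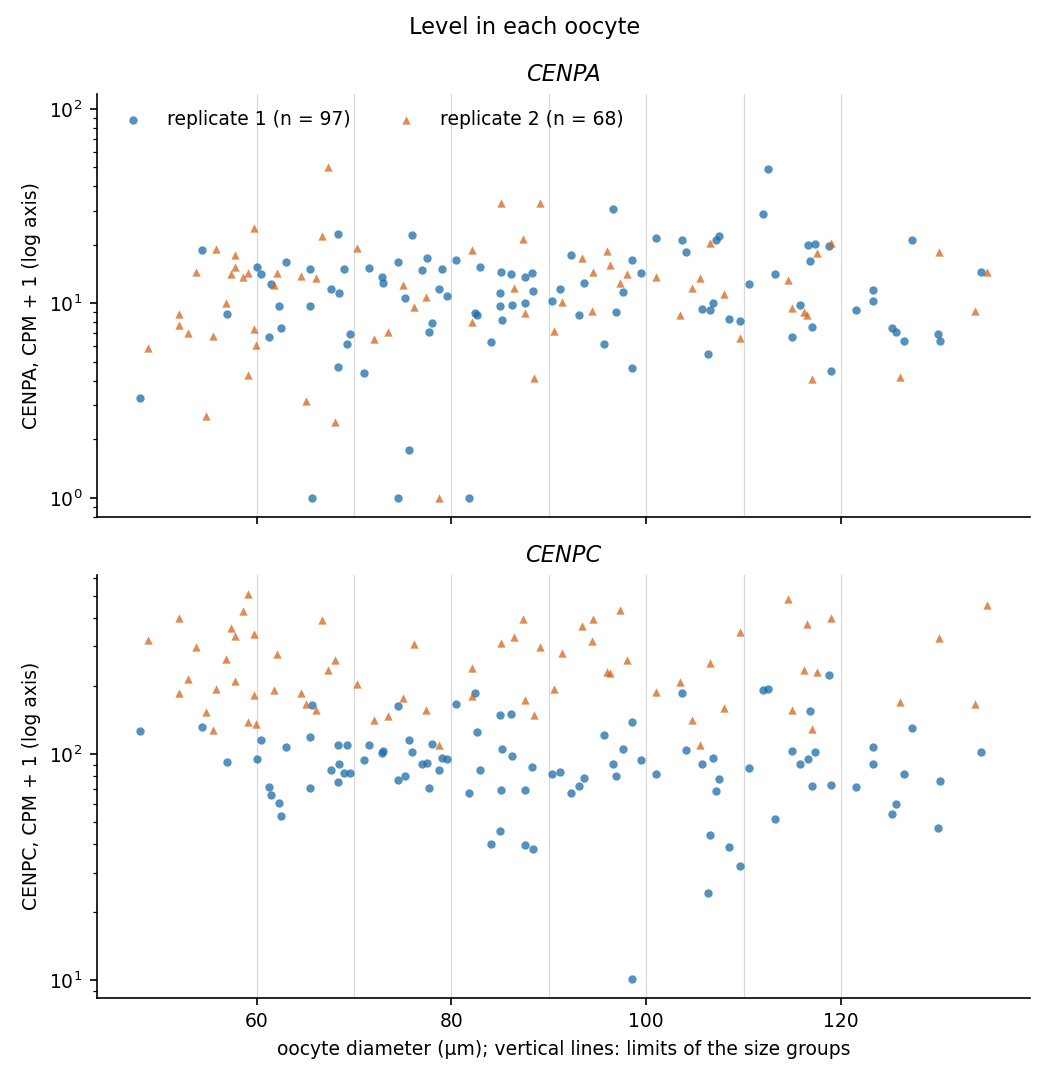
CPM + 1 of CENPA (top) and CENPC (bottom) in each oocyte on a log axis, against oocyte diameter in μm, with blue circles for replicate 1 (n = 97), orange triangles for replicate 2 (n = 68) and grey lines at the limits of the size groups. The replicates mix for CENPA, where 4 oocytes lie at 0 CPM, and are shifted for CENPC, with medians of 89.4 and 231 CPM.

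Within the replicates the CENPC levels of the size groups overlapped. In replicate 1, the group medians were 126 CPM at <60 μm (range 91.9 to 130.9, n = 3), 84.1 CPM at 60-69 μm (52.6 to 164.9, n = 17), 94.9 CPM at 70-79 μm (69.9 to 162, n = 16) and 85.2 CPM at 80-89 μm (37.2 to 185, n = 16). Those of the larger oocytes were 81.6 CPM at 90-99 μm (9.18 to 137, n = 12), 76.7 CPM at 100-109 μm (23.5 to 186, n = 11), 97.6 CPM at 110-119 μm (50.9 to 223, n = 12) and 78.0 CPM at >120 μm (46.4 to 130, n = 10). The <60 μm median rests on 3 oocytes and was the highest of replicate 1. In replicate 2, the medians were 239 CPM at <60 μm (127 to 511, n = 18), 212.8 CPM at 60-69 μm (155 to 393, n = 8), 156 CPM at 70-79 μm (109 to 306, n = 7) and 270 CPM at 80-89 μm (149 to 395, n = 8). They were 280 CPM at 90-99 μm (193 to 432.7, n = 9), 187 CPM at 100-109 μm (109 to 345.1, n = 7), 234.5 CPM at 110-119 μm (129 to 486, n = 7) and 247 CPM at >120 μm (166 to 458, n = 4). The lowest median of replicate 1 was that of the 100-109 μm oocytes, and the lowest of replicate 2 that of the 70-79 μm oocytes. On the log2 scale with the replicate mean removed, the order from high to low was 110-119, <60, 90-99, 60-69, 80-89, 70-79, >120 and 100-109 μm. The largest gap in that order, 0.30 between >120 and 100-109 μm, was smaller than the SD within any group (0.42 to 0.80).

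For the tests, the counts of all oocytes that shared a size group and a replicate were added up, which gave 16 sums, and all genes were fitted together with edgeR's quasi-likelihood method, with the replicate as a block and p-values adjusted by Benjamini-Hochberg over 14087 genes. CENPC differed between the library replicates. Its summed level was higher in replicate 2 in 8 of 8 size groups, by 1.78-fold (70-79 μm) to 4.93-fold (>120 μm), and in the 90-99 μm and >120 μm groups no oocyte of replicate 2 was as low as the highest of replicate 1. The fitted difference was 1.53 ± 0.16 on the log2 scale (SE), 2.89-fold, with an adjusted p of 1.87e-07. This comparison was added after the difference had been seen, and 57.7% of all genes tested were called in it, 25.9% higher and 31.7% lower in replicate 2, with CENPC at the 91.7th percentile of the log2 differences. For CENPA, replicate 2 was higher in 5 of 8 groups, the folds were 0.626 to 1.68, and the test was not passed, with a fitted log2 difference of 0.18 ± 0.20 (95% interval -0.25 to 0.61, adjusted p = 0.475). The log2 ratio of CENPA to CENPC counts lay between -3.38 and -2.45 in the 8 sums of replicate 1 and between -4.77 and -3.66 in those of replicate 2, without overlap.

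**Figure D2:**
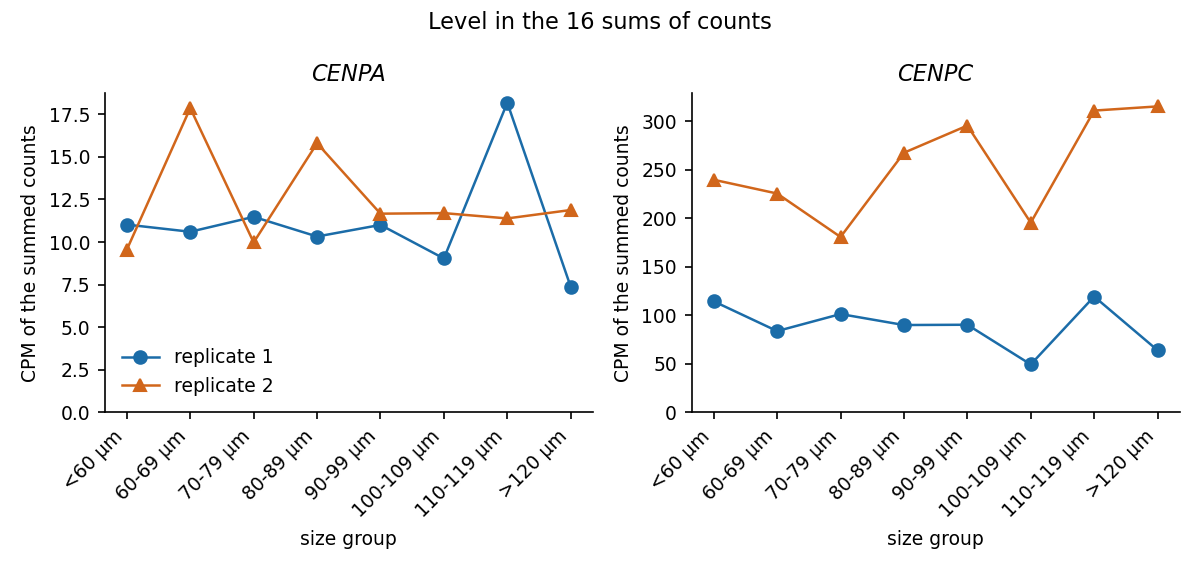
CPM of the summed counts of CENPA (left) and CENPC (right) in the 8 size groups, with blue circles for replicate 1 and orange triangles for replicate 2, 1 point per sum and no error bar. For CENPC every replicate 2 sum lies above the replicate 1 sum of its group, and both lines are lower at 100-109 μm (49.4 and 196 CPM) than at the neighbouring sizes, whereas the peaks of CENPA stand at different sizes in the replicates.

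CENPA was not called in any comparison of size groups. In replicate 1 its summed level was 11.02 CPM at <60 μm, 10.6 at 60-69 μm, 11.5 at 70-79 μm, 10.3 at 80-89 μm, 11.01 at 90-99 μm, 9.04 at 100-109 μm, 18.2 at 110-119 μm and 7.38 CPM at >120 μm. In replicate 2 it was 9.56 CPM at <60 μm, 17.9 at 60-69 μm, 9.98 at 70-79 μm, 15.8 at 80-89 μm, 11.7 at 90-99 μm, 11.7 at 100-109 μm, 11.4 at 110-119 μm and 11.9 CPM at >120 μm. Of the 7 steps from each size group to the next, 0 went in the same direction in both replicates. The highest sums owed much to single oocytes: 1 oocyte of 49.2 CPM gave 47.6% of the CENPA counts of the 60-69 μm sum of replicate 2, and 1 of 48.3 CPM gave 39.7% of those of the 110-119 μm sum of replicate 1. In the <60 μm sum of replicate 1, which held 3 oocytes of 2.25, 17.8 and 7.80 CPM, 1 oocyte gave 71.3% of the counts. The largest fitted differences were 0.55 ± 0.41 from 100-109 to 110-119 μm (log2, SE, adjusted p = 0.404) and -0.69 ± 0.41 from 110-119 to >120 μm (adjusted p = 0.523). Without the 110-119 μm sum of replicate 1 the former was -0.03. The other 5 steps lay between -0.37 and 0.44, with 95% intervals reaching from -1.21 to 1.28. Changes of up to about the sizes of these interval ends were not excluded here.

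CENPC had its lowest fitted level at 100-109 μm and its highest at 110-119 μm, and no step passed the threshold. In replicate 1 its summed level was 115 CPM at <60 μm, 83.8 at 60-69 μm, 101 at 70-79 μm, 90.1 at 80-89 μm, 90.4 at 90-99 μm, 49.4 at 100-109 μm, 119 at 110-119 μm and 64.0 CPM at >120 μm. In replicate 2 it was 240 CPM at <60 μm, 226 at 60-69 μm, 181 at 70-79 μm, 267.7 at 80-89 μm, 295.7 at 90-99 μm, 196 at 100-109 μm, 311 at 110-119 μm and 315 CPM at >120 μm. Of the 7 steps, 4 had the same direction in both replicates, among them the step down to 100-109 μm (log2 differences of -0.87 and -0.60) and the step up to 110-119 μm (1.27 and 0.67). The fitted difference from 100-109 to 110-119 μm was 0.95 ± 0.32 (95% interval 0.29 to 1.62), with an unadjusted p of 0.0070 and an adjusted p of 0.077 in edgeR's quasi-likelihood test. In that comparison 3.88% of all genes tested were called, 1.89% higher and 1.99% lower at 110-119 μm. The differences of 100-109 μm from 90-99 μm (-0.72 ± 0.31, adjusted p = 0.467) and from the combined 80-99 μm oocytes (-0.68 ± 0.28, adjusted p = 0.243) also missed the threshold, where 0% and 0.497% of genes were called, in the latter 0.433% higher and 0.0639% lower.

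Whether this difference of CENPC passed depended on the settings and on which sums were used. It passed with DESeq2 (1.00, adjusted p = 0.022), without a filter on low counts (0.96, adjusted p = 0.043) and when single oocytes were taken as units (0.62, adjusted p = 0.0083), which treats oocytes of unnamed animals as independent. It also passed without the <60 μm sum of replicate 1 or of replicate 2 (1.00 each) and without the 100-109 μm sum of replicate 2 (1.28), with adjusted p-values of 0.044 to 0.046, and the range over all alternatives was 0.0035 to 0.875. The 100-109 μm sum of replicate 1 held 1 deep oocyte with 7856854 counts, 52.9% of that sum, and a CENPC level of 30.9 CPM, the second lowest of its 11 oocytes. Without it the difference was 0.73 (adjusted p = 0.144), and at 250000 counts per oocyte it was 0.61 (adjusted p = 0.139). The same sum had the highest level of the granulosa cell marker list, 43.3 CPM against 11.2 to 32.9 CPM in the other 15 sums, with CENPC at its lowest, and the part of this in the CENPC level was not tested. The 100-109 μm oocytes also had the lowest median of total counts among the size groups, 923622, beside 1150073 at 90-99 μm and 1986086 at 110-119 μm.

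**Figure D3:**
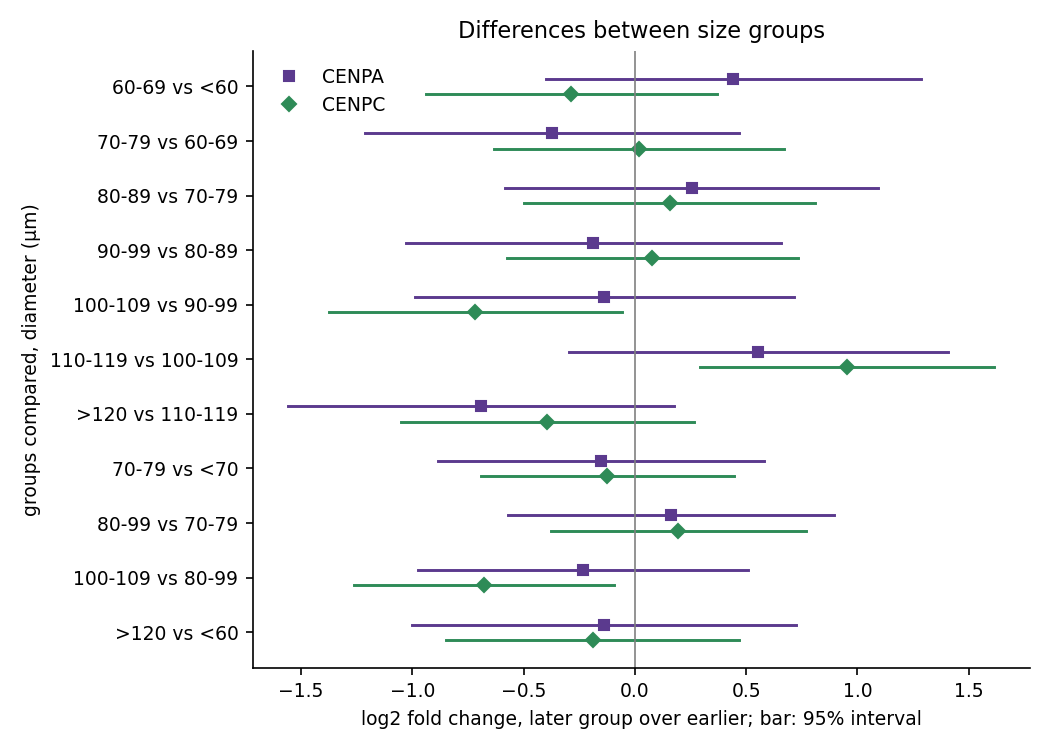
Log2 fold change of CENPA (purple squares) and CENPC (green diamonds) in 11 comparisons of size groups, from the fit to 16 sums, with bars for 95% intervals and the later group over the earlier. The intervals of CENPA all include 0, and those of CENPC exclude 0 only where 100-109 μm oocytes are compared with 90-99, 110-119 or 80-99 μm oocytes, with adjusted p-values of 0.467, 0.077 and 0.243.

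Across the whole of growth neither gene had a detectable trend. The slope on diameter was -0.0062 ± 0.042 per 10 μm for CENPA (log2, SE, 95% interval -0.094 to 0.082, adjusted p = 0.929) and 0.0034 ± 0.036 per 10 μm for CENPC (95% interval -0.072 to 0.079, adjusted p = 0.955). In the same test 33% of all genes were called, 14.8% higher and 18.1% lower with growth. The absolute slopes of CENPA and CENPC were at the 3.58th and 1.92nd percentile of all genes, whose median was 0.096. Both slopes were smaller than their SE, so these ranks are not precise. Leaving out 1 sum reversed the sign of the CENPA slope in 12 of 16 fits. Between the smallest and the largest oocytes, where 19.2% of genes were called (9.36% higher and 9.8% lower), the log2 difference (>120 over <60 μm) was -0.14 for CENPA (95% interval -1.0 to 0.72, adjusted p = 0.849) and -0.19 for CENPC (95% interval -0.85 to 0.47, adjusted p = 0.715). These values average opposite directions in the replicates, with log2 differences of -0.58 and 0.31 for CENPA and of -0.84 and 0.40 for CENPC in replicates 1 and 2. The interval of CENPA thus reaches a level 2-fold lower at its lower end. The fitted levels of the 8 groups spanned 0.69 for CENPA and 0.95 for CENPC on the log2 scale, the 11.8th and 27.7th percentile among genes with a median span of 1.35. A test of any difference between the 8 groups, added after the data had been seen, gave adjusted p-values of 0.762 and 0.391, with 14.9% of genes called.

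The remaining comparisons gave no call for either gene. From <60 to 60-69 μm, where 0.0142% of genes were called, CENPA differed by 0.44 ± 0.40 and CENPC by -0.29 ± 0.31. From oocytes below 70 μm to those of 70-79 μm, where 0.135% were called, the differences were -0.15 ± 0.35 and -0.12 ± 0.27, and from 110-119 to >120 μm, where 0.0071% were called, CENPC differed by -0.39 ± 0.31. For the steps 60-69 to 70-79, 70-79 to 80-89, 80-89 to 90-99 and 90-99 to 100-109 μm and for 70-79 against 80-99 μm, 0% of genes were called by edgeR. At an unadjusted p below 0.05, edgeR had 488, 671, 469, 1432 and 780 genes in these 5 comparisons, and DESeq2 called 5, 2, 0, 74 and 17. CENPC was below an unadjusted p of 0.05 in the step from 90-99 to 100-109 μm (p = 0.034) and CENPA in none of them.

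The balance of the genes against each other was tested within each library, where library size cancels. The log2 ratio of CENPA to CENPC went with the mean diameter of the 8 sums at r = 0.54 in replicate 1 (exact permutation p = 0.165, rho = 0.55, p = 0.171) and at r = -0.47 in replicate 2 (exact permutation p = 0.237, rho = -0.55, p = 0.171), two-sided. Without the 2 sums farthest from the median diameter, r was 0.70 and -0.74. In these summed counts the sign was opposite in the replicates and neither passed. With the mean log2 ratio per oocyte in place of the summed counts, r was 0.70 (rho = 0.76, exact permutation p = 0.052 and 0.037, unadjusted) in replicate 1 and -0.081 (rho = 0.024, exact permutation p = 0.844 and 0.977) in replicate 2, and with 5 counts added to each gene rho was -0.21 in replicate 2. With the mean per oocyte, r thus kept opposite signs but rho was positive in both replicates. With 5 counts added, r and rho both kept opposite signs. The family held 5 ratios, among them the CENPL and CENPN ratios below, and 20 such tests. In it the adjusted p-values of CENPA to CENPC were 0.228 to 0.279.

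The genes that read the centromeric mark were taken next, beginning with those whose proteins touch the CENP-A nucleosome. CENPB encodes the protein that binds a short motif in centromeric satellite DNA. Its transcript was close to absent, at 0 to 0.565 CPM in the sums of replicate 1 and 0 to 0.932 CPM in those of replicate 2, with a slope of 0.050 ± 0.16 (adjusted p = 0.843). CENPN and CENPL encode partners in a complex that, like CENP-C, contacts the CENP-A nucleosome. CENPL ranged from 43.1 to 142 CPM in replicate 1 and from 16.4 to 123 CPM in replicate 2, and it rose with diameter at 0.26 ± 0.041 per 10 μm (adjusted p = 6.84e-05) and by 1.42 ± 0.35 from <60 to >120 μm (adjusted p = 0.0083), the latter call being lost without the <60 μm sum of replicate 1, which holds 3 oocytes. CENPN ranged from 19.1 to 45.3 CPM and from 11.2 to 19.3 CPM, with a slope of -0.092 ± 0.038 that missed the threshold (adjusted p = 0.065).

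The ratios of CENPL to both centromere genes were chosen after its slope had been seen, so they are read as a description only. Their exact permutation tests belong to the family of 20 above, and none passed, with adjusted p-values of 0.071 to 0.092. For CENPL to CENPA, r with the mean diameter of the 8 sums was 0.84 in replicate 1 and 0.74 in replicate 2. For CENPL to CENPC, r was 0.87 and 0.76. Without the 2 sums farthest from the median diameter, r was 0.68 and 0.88 to CENPA and 0.70 and 0.86 to CENPC. The 4 ratios of CENPN to the centromere genes, chosen likewise, had r between -0.65 and -0.32, and none passed (exact permutation, adjusted p of 0.197 to 0.442). Without the 2 farthest sums, r was -0.79 and 0.26 to CENPA in replicates 1 and 2, and -0.34 and -0.38 to CENPC. The negative sign of CENPN to CENPA in replicate 2 thus did not hold.

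Other members of the constitutive centromere associated network, the inner kinetochore complexes that assemble on CENP-C and CENP-A, moved with size in both directions. Of 15 listed members 11 could be paired with an ID, all were tested, and 8 passed on slope, 6 higher and 2 lower with growth, beside 33% of all genes. CENPM (0.18 ± 0.036 per 10 μm, adjusted p = 5.66e-04) and CENPT, whose protein reaches the outer kinetochore by a route separate from CENP-C (0.15 ± 0.039, adjusted p = 0.0047), rose, as did CENPI, CENPO and CENPP. The call of CENPP was lost with all 179 oocytes and without any 1 of 3 sums (<60, 80-89 or 110-119 μm of replicate 1), and that of CENPI without the <60 μm sum of replicate 2. CENPS and CENPX, partners with histone folds that also act in DNA repair, fell by 0.17 and 0.15 per 10 μm (adjusted p = 0.021 and 0.0071), the call of CENPS being lost without any 1 of 8 of the 16 sums and that of CENPX at 250000 counts per oocyte. The median slope of the 11 was 0.074, against -0.016 over all genes. From 100-109 to 110-119 μm, where 3.88% of all genes were called and 1.89% were higher, 2 of the 11 were called, CENPH (1.23 ± 0.30, adjusted p = 0.039) and CENPS (1.31 ± 0.35, adjusted p = 0.047), both higher, in the step where CENPC differed by 0.95. Leaving out 1 sum ended these calls for 7 and 8 of the 16 sums.

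**Figure D4:**
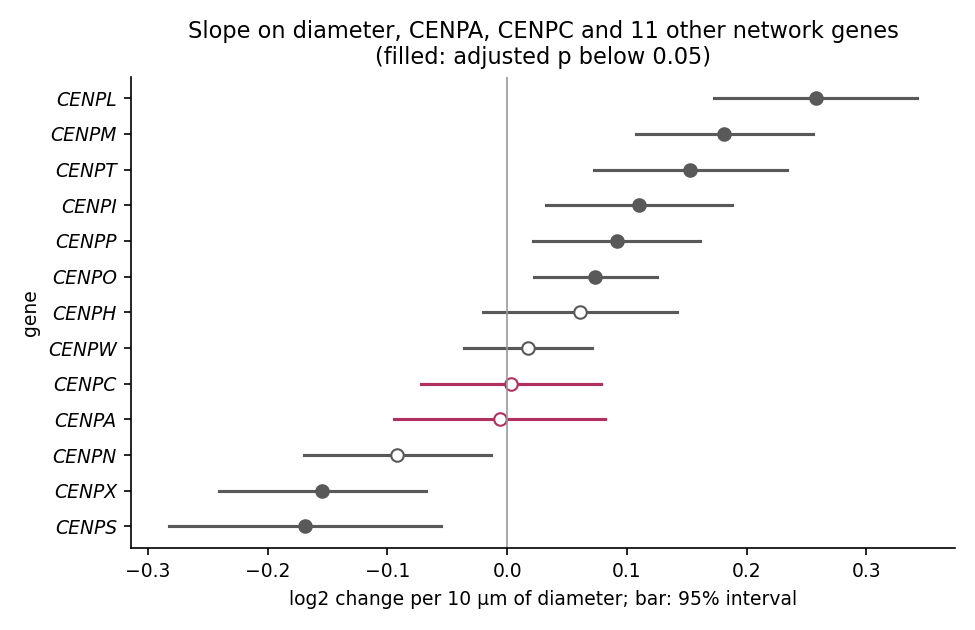
Slope on diameter (log2 change per 10 μm) of CENPA and CENPC (red) and of 11 other genes of the constitutive centromere associated network (grey), with 95% intervals, and filled points where the adjusted p is below 0.05. CENPA (-0.0062) and CENPC (0.0034) lie next to 0, with CENPL (0.26) and CENPS (-0.17) at the ends.

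Genes that load and maintain CENP-A were covered only in part. Of 25 listed, 9 could be paired with an ID, and the dedicated chaperone HJURP and the Mis18 genes were not among them. On slope 2 of the 9 passed, beside 33% of all genes: COPS8, a subunit of the COP9 signalosome, fell by 0.16 per 10 μm (SE 0.025, adjusted p = 4.99e-05), and CDK1, the cyclin-dependent kinase whose activity holds back CENP-A loading, rose by 0.14 per 10 μm (SE 0.042, adjusted p = 0.016). The median slope of the 9 was 5.0e-04. Of 10 listed chaperones and readers of other histones, 7 were tested and 3 passed on slope, beside 33% of all genes, with CBX3 and CBX1, heterochromatin proteins, lower by -0.25 ± 0.049 and -0.18 ± 0.038 per 10 μm and CHAF1A, the large subunit of a histone H3-H4 chaperone, higher by 0.14 ± 0.034.

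On the side of the kinetochore that CENP-C connects to, 5 of 24 outer kinetochore and checkpoint genes were paired, and 4 passed on slope, beside 33% of all genes. Genes of this list such as NDC80 and MIS12 were not paired, and these counts describe only the part of the list that was. CENPE and CENPF, a kinesin and a large kinetochore-associated protein, were higher with growth at 0.15 and 0.11 per 10 μm, and the checkpoint genes BUB1 and BUB1B were lower at -0.089 and -0.10, the calls being lost without any 1 of 12 of the 16 sums for BUB1 and of 3 for BUB1B. Of 11 genes of the inner centromere and the chromosomal passenger complex, 5 were paired and 4 passed, all higher with growth, beside 14.8% of all genes called higher, with the largest slope in AURKC, an Aurora kinase of germ cells, at 0.21 ± 0.031 (adjusted p = 2.52e-05).

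Over single oocytes the levels of CENPA and CENPC went together weakly. With log2(CPM + 1) and the mean of each replicate removed, Pearson's r was 0.30 (rho = 0.36) over all oocytes, 0.27 in replicate 1 (n = 97) and 0.35 in replicate 2 (n = 68), and it was 0.13 at 250000 counts per oocyte. The 2 values of an oocyte share a library and its depth, and the correlation with log10 total counts was 0.27 for CENPA and 0.13 for CENPC. With diameter, r was 0.13 for CENPA and -0.042 for CENPC. These are descriptions over oocytes, which are not replicates of a size.

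Over the 16 sums with the replicate mean removed, CENPA and CENPC had r = 0.51, higher than 92.2% of other genes had with CENPA and 86.5% with CENPC. Among genes with a symbol, those most like CENPA were CDC73, a subunit of the PAF1 transcription complex (r = 0.87), ROPN1, known from the sperm flagellum (r = 0.80), and CHM, a Rab escort protein (r = 0.80). Those most like CENPC were CCDC88A, an actin-binding protein (r = 0.94), BRIP1, a DNA helicase that works with BRCA1 (r = 0.90), and CEBPZ, a nucleolar protein (r = 0.89). The 3 genes of CENPC kept r of 0.80 to 0.96 within each replicate. The sums share libraries within a replicate, and the best of 2935 genes with a symbol were taken.

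The libraries were those of oocytes by their markers. The summed level of 6 paired oocyte markers, among them BMP15 and BTG4, was 6218 to 10305 CPM over the 16 sums, against 11.2 to 43.3 CPM for 9 of 25 granulosa markers and 4.68 to 28.0 CPM for 9 of 12 markers of stroma, vessels and immune cells. The granulosa markers AMHR2, CYP11A1, CCND2 and COL4A2 were at 0 in 155, 156, 157 and 140 oocytes, FSHR and GATA4 in 120 and 121, and HSD17B1, COL4A1 and CD44 in 42, 22 and 14. CD44 and COL4A1 made up most of that list's level. Of the 5 granulosa markers tested, HSD17B1 alone passed on slope, beside 33% of all genes, and fell by 0.36 per 10 μm. Among the markers of stroma, vessels and immune cells, COL1A2 and ACTA2 were at 0 in 22 oocytes each, CD68 in 101, and the other 6 had a median count of 0 and a mean of at most 0.125 CPM. Of 3 of these tested, COL1A2 alone passed on slope, beside the same 33%, and rose by 0.27 per 10 μm. Genes of dividing cells, many of which oocytes also hold, summed to 3052 to 6315 CPM, and 8 of 16 passed on slope, 7 higher and 1 lower with growth. Of the 6 oocyte markers 5 passed, 3 higher and 2 lower. Over all genes 33% passed on slope, 14.8% higher and 18.1% lower. The part of these lists in the slopes of the kinetochore and passenger complex genes, some of which they share, was not tested. Over oocytes with the replicate mean removed, the granulosa sum went with CENPC at r = -0.32 and with CENPA at r = 0.031, and the part of such cells in the CENPC level was not tested.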

How the data were processed

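Single oocytes of Bos taurus were profiled with Smart-seq2 and Nextera XT libraries on a NextSeq500. The authors trimmed reads with Trim Galore 0.6.6, aligned them with HISAT2 to ARS-UCD1.2 and counted them per gene with SeqMonk. Values were deposited as raw counts with 1 column for each oocyte. How strand, overlapping genes and reads with several alignments were treated is not given in the sources used here. Of 179 oocytes, those listed by the study (97 and 68 in the replicates) were used. Lines of 1 gene ID were summed, and 3608 IDs had a symbol in the copies of the supplementary lists used here, which are shortened. All paired members of the centromere, kinetochore and histone chaperone lists had symbols that begin with A, B or C.

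Counts were summed by size group and replicate (16 sums). edgeR 4.0.16 in R 4.3.3 was used with filterByExpr (14087 genes kept), TMM, the 8 groups and the replicate as a block. The quasi-likelihood test was adjusted by Benjamini-Hochberg at 0.05. The standard error is the size of the log2 fold change divided by the square root of F. The slope was fitted on the mean diameter of each sum. Levels per oocyte are CPM (counts per 1e+06) of the effective library size, with a pseudocount of 1 on the log2 scale. Intervals and limits of a count of 0 cover counting error only. Replicate numbers mark a shared library batch and read length. Sums of 1 replicate deviated together (correlations of 0.398 to 0.694 over 28 pairs of groups, median 0.579), so the number pairs them. The oocytes of a sum are pooled and no animal is named, so p-values measure the spread between these libraries, which may be technical. Ratios were tested by exact permutation of 8 sums (40320 orders). The fit was tested on simulated data. DESeq2 1.42.0, ComBat-seq of sva 3.50.0 and other settings were tried as alternatives.

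CENPA, CENPC, the lists and the tests were chosen with earlier results of these data known. Named were CENPA and CENPC, up to 10 list members with an adjusted p below 0.05 and the smallest p in any comparison of sizes, CENPB, CENPN and CENPL in any case, the 3 genes most like each of CENPA and CENPC, and markers by their lists. Other list members (CENPI, CENPO, CENPP, CENPX, CENPE, CENPF, BUB1, BUB1B and CDK1) were named after their values were seen.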

Additional observations from a re-analysis of the deposited data

Results flagged for a closer look

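In the 70-79 μm group of replicate 2 (n = 7 oocytes), the lowest CENPA level was marked as far from the others on the scale of log2(CPM + 1). That oocyte, 78.68 μm in diameter, had 0 CPM and 462399 total counts, and the next lowest had 5.55 CPM, a gap of 0.635 of the group's range on that log2 scale against a critical value of 0.568. At its depth a count of 0 allows up to 6.49 CPM, above the next lowest value, so it cannot be said to lie below that oocyte. Of 16 sets of values examined in this way (8 groups of 4 to 10 oocytes for each of 2 genes), 1 was marked, and chance marks about 1 in 20. Of the 14 deposited oocytes outside the set that the study analysed, which had 10 to 4933709 total counts, 5 held at least 1 CENPA count and 11 at least 1 CENPC count. Among the 7 of them with at least 1e+06 total counts, CENPA was found in 5 and CENPC in 7. The 2 without a CENPA count were both <60 μm, with 4933709 and 2487675 total counts, so a CENPA count of 0 outside the analysed set was not limited to shallow libraries.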

How the results depend on the processing

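CENPA was called in none of the size comparisons under any alternative, and the call of CENPC between replicates held in each of the 24 alternatives that test it. The CENPC difference from 100-109 to 110-119 μm passed with DESeq2 (1.00), without a filter (0.96), with oocytes as units (0.62) and with ComBat-seq counts (0.66), and leaving out 1 sum gave 0.74 to 1.28. Several differences that missed the threshold changed sign. For CENPA they were 60-69 against <60 μm at 250000 counts per oocyte (-0.13, beside 0.44 in the text), 70-79 against <70 μm with all 179 oocytes (0.033), 100-109 against 80-99 μm with oocytes as units (0.020) and ComBat-seq (0.025), and 100-109 against 90-99 μm with these 2 settings (0.045 and 0.041) and without the deepest oocyte (0.080). For >120 against <60 μm CENPA was at 0.16 with all oocytes, 0.0092 with oocytes as units and 0.040 with ComBat-seq, and its replicate difference was -0.17 at 250000 counts. The CENPA slope was 0.016 at 250000 counts, 0.012 with all oocytes, 0.0038 with DESeq2, 0.0054 with the highest line per ID, 0.0034 without a filter, 0.0033 with RLE, 0.038 with oocytes as units, 0.046 with ComBat-seq and 0.012 without the deepest oocyte. For CENPC, 70-79 against 60-69 μm was -0.080 at 250000 counts, -0.020 fitted on these groups alone, -0.015 with oocytes as units and -0.012 with ComBat-seq, and the slope was -0.012 at 250000 counts. Without the replicate block, which pairs sums of 1 library batch, CENPC was at -0.13 for 70-79 against 60-69 μm, 0.097 for >120 against <60 μm and 0.81 (adjusted p = 0.875) for 110-119 against 100-109 μm.

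Leaving out 1 sum moved CENPA between -0.36 and 0.055 (70-79 against <70 μm), -0.69 and 0.0020 (70-79 against 60-69 μm), -0.42 and 0.10 (90-99 against 80-89 μm), -0.031 and 1.03 (110-119 against 100-109 μm), -0.31 and 0.17 (>120 against <60 μm) and -0.036 and 0.035 (slope). It moved CENPC between -0.54 and 0.21 (70-79 against <70 μm), -0.40 and 0.35 (70-79 against 60-69 μm), -0.11 and 0.64 (80-99 against 70-79 μm), -0.16 and 0.60 (80-89 against 70-79 μm), -0.55 and 0.22 (>120 against <60 μm) and -0.0088 and 0.035 (slope). None of these passed, and the cause was not tested. The share of oocytes with CENPA was 80.8% at <60 μm with all 179 oocytes, 100% at 60-69 and 80-89 μm in replicate 2 alone and 69.6% at 70-79 μm at 250000 counts. The correlation of CENPA with CENPC was 0.24 with log2(CPM + 0.1), 0.41 with all oocytes and 0.13 at 250000 counts. That with diameter was 0.27 and 0.015 for CENPA and 0.15 and -0.20 for CENPC with all oocytes and at 250000 counts. The list members called on slope or in the steps named kept their direction, with 0 reversals, but not all calls held. Without the replicate block 16 of the 21 slope calls, all 10 calls for >120 against <60 μm and all 4 for 110-119 against 100-109 μm were lost. The same 4 were lost with all 179 oocytes and with the compared groups fitted alone, and the latter lost 5 of the 10. The number of genes called ranged from 2192 to 6344 for slope (4642 in the text), 81 to 4517 for >120 against <60 μm (2700), 0 to 4086 for 110-119 against 100-109 μm (547), 0 to 983 for 100-109 against 80-99 μm (70), 0 to 894 for 70-79 against <70 μm (19), 0 to 518 for >120 against 110-119 μm (1), 0 to 52 for 60-69 against <60 μm (2) and 0 to 7187 for any difference (2104). For the 5 comparisons with 0 calls they reached 54 to 411. CENPA had a median of 18 counts per oocyte, and the part of depth in its spread was not tested. Both centromere genes were limited by 2 sums per size group, with standard errors of 0.31 to 0.41 on a log2 step.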
